A study of Mus musculus with 33 samples.

Results

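The respiratory chain genes described here are the 77 autosomal rows, of 24391 genes in the table, whose symbols follow the naming of nuclear-encoded subunits of the oxidative phosphorylation complexes. They were taken by symbol alone: Nduf followed by a, b, c, s or v and a number, Sdha to Sdhd, symbols beginning with Uqcr, Cox4 to Cox8 with a letter and number, and symbols beginning with Atp5. By symbol, 34 belonged to complex I, 4 to complex II, 8 to complex III, 14 to complex IV and 17 to complex V. A further 3 genes with such symbols, Ndufa1, Ndufb11 and Cox7b, lie on the X chromosome and are given only for comparison. The pattern leaves out a few subunits named differently (Cox4i1, Cyc1, Ndufab1), and it takes in Ndufa4, which is now placed in complex IV, and Atp5s and Atp5sl, which are not structural subunits of ATP synthase. The table held 0 rows from the mitochondrial genome, so the subunits encoded there were not measured.

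The chain passes electrons from NADH (complex I) and succinate (complex II) through ubiquinone to complex III and then, through cytochrome c, to complex IV, which reduces oxygen. Proton pumping by complexes I, III and IV drives ATP synthase, complex V. Embryonic stem cells are known for strong glycolysis with a working respiratory chain, and several complex IV subunits have isoforms restricted to heart and skeletal muscle or to testis.

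RNA was measured by sequencing of poly(A) RNA in mouse embryonic stem (ES) cells of a CAST/Ei x 129/Sv/Jae background, in a line labelled wildtype (WT) and a line labelled RepB, after Repeat B of the Xist RNA. Cells were held on irradiated feeder fibroblasts with LIF (day 0), then freed of feeders, grown in suspension as embryoid bodies and plated on gelatin. Each line had 1 library at day 0 and at days 5, 6, 7, 8 and 10, so there were 12 libraries and no replicate cultures. The labels do not describe the RepB edit or name its allele, and both groups are single lines. The p-values below therefore speak only of a single time course. Those for RepB against WT measure the steadiness of the difference from day to day. Those for days 5 to 10 against day 0 use that same spread, so they do not measure how steady the change from day 0 was. Those for slopes use the spread around the fitted lines. Levels are CPM, the share of a library's TMM-scaled total on the usual scale.

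Library totals ran from 3594551 to 17773138 counts, and 3 counts in a library, the limit that a count of 0 allows, were 0.164 to 0.889 CPM. At day 0 the 8 pluripotency markers summed to 5739 CPM in WT and 6806 CPM in RepB, and over days 5 to 10 they summed to 307 to 2215 CPM in WT and 467 to 2957 CPM in RepB. The 8 fibroblast markers summed to 693 and 827 CPM at day 0 and to between 61.8 and 14137 CPM later. The part of these cells in the changes below was not tested. Of all markers examined, Hba-a1 alone was at 0 in every library. In bulk RNA, fewer cells of a type and less RNA per cell cannot be told apart.

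Together the 77 genes made up between 0.668% of all counts (RepB day 10) and 0.914% (WT day 8), and 72 of them passed the filter on low counts. ATP synthase held the largest sum in every library, 2838 to 3664 CPM, followed by complex I with 2157 to 3104 CPM. Atp5b and Atp5a1, the beta and alpha subunits that form the catalytic head of ATP synthase, alone gave 23.6% to 29.6% of the summed CPM of the 77 genes. The sums of complex II lay between 419 and 545 CPM, those of complex III between 619 and 883 CPM and those of complex IV between 617 and 980 CPM.

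Per kilobase of exon, the mean level over the 12 libraries was highest for Atp5b, at 696 CPM per kb, and Atp5a1 stood at 339 CPM per kb. The other high levels per kb belonged to small subunits. In complex IV, Cox6a1 reached 349, Cox6b1 308 and Cox8a 251 CPM per kb. In complex I, Ndufa4 stood at 283 and the accessory membrane-arm subunits Ndufb7 and Ndufb8 at 217 and 207 CPM per kb. Complex III was led by Uqcr10 at 185, the hinge protein gene Uqcrh at 160 and the core protein gene Uqcrc1 at 142 CPM per kb. The 4 complex II genes were closest to one another: Sdhb, the iron-sulfur subunit, stood at 92.9, the membrane anchors Sdhc and Sdhd at 72.9 and 62.7, and Sdha, the flavoprotein that oxidises succinate, at 72.4 CPM per kb.

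**Figure D1:**
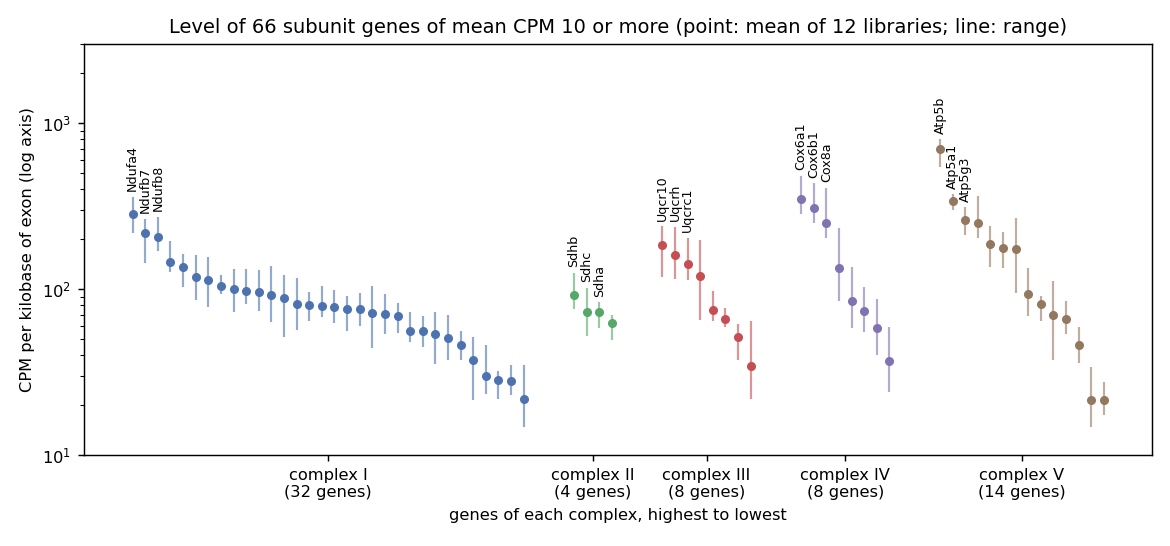
Mean level over 12 libraries (points) and range over the libraries (lines) of the 66 genes with a mean of at least 10 CPM, in CPM per kilobase of exon on a log axis, sorted within each complex. Atp5b, at 696 CPM per kb, stood above all others, and the 4 complex II genes lay between 62.7 and 92.9.

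The c-ring of ATP synthase, the rotor that protons turn, is encoded by 3 genes that give the same mature protein. Atp5g3 carried most of their RNA, with 261 CPM per kb against 21.6 for Atp5g1 and 2.38 for Atp5g2. Atp5g1 was the only one of the 3 called against day 0: it read 27.5 CPM in WT and 29.7 CPM in RepB at day 0. On days 5, 6, 7, 8 and 10 it read 20.6, 14.5, 12.8, 17.4 and 15.3 CPM in WT and 19.7, 19.4, 18.7, 15.7 and 13.9 CPM in RepB. All 10 later libraries lay below both day 0 libraries, and the fall was 0.77 on the log2 scale (SE 0.14, edgeR quasi-likelihood test, adjusted p = 0.00043). Atp5g3 differed from day 0 by -0.02 (SE 0.10, adjusted p = 0.89). Atp5g2 differed by -0.22 (SE 0.33) at a mean of 1.54 CPM, too wide an error to tell a fall like that of Atp5g1 from none.

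Among the tissue-restricted isoforms of complex IV, Cox7a1, the heart and skeletal muscle form, was present in ES cells and then fell. It read 13.9 CPM in WT and 9.65 CPM in RepB at day 0. The 5 later days, in order, gave 7.62, 3.59, 4.84, 3.87 and 2.03 CPM in WT and 7.74, 4.47, 5.76, 4.45 and 3.34 CPM in RepB. Every later library lay below day 0 of its line, and the level was 2.60-fold lower over days 5 to 10 (log2 -1.38, SE 0.17, adjusted p = 1.4e-05), with a mean change of -1.66 in WT and -0.89 in RepB. Over the same days the 7 heart muscle markers summed to 24.2 to 623 CPM, against 21.5 and 27.3 CPM at day 0, and the part of heart cells in the Cox7a1 values was not tested. The widely expressed counterpart Cox7a2 held a mean of 56.1 CPM and differed from day 0 by -0.03 (SE 0.16, adjusted p = 0.89).

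Cox6b2, known as the testis form, had a mean of 52.1 CPM beside 155 CPM for its counterpart Cox6b1, and it was found in every library, at 36.3 to 84.0 CPM. The muscle form Cox6a2 had 18 and 9 counts at day 0 and at most 7 counts in a later library. Cox8b, the muscle form of subunit 8, had 1 count in the whole series and Cox8c, a testis form, at most 5 counts in a library. Cox7b2 had 14 and 7 counts at day 0 and at most 4 later. The fifth gene under the filter, Ndufs5, had 1 count in all 12 libraries together. Several subunit genes have processed copies elsewhere in the genome, and how reads with several matches were counted is not given in the sources used here, so the low levels of Ndufs5, Ndufb4, Cox7c, Atp5g2 and Atp5l are uncertain.

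After day 0 the members moved in both directions, with counts that varied by complex. Of the 72 tested, 16 were higher over days 5 to 10 than at day 0 and 13 were lower at an adjusted p under 0.05 (edgeR). Over all 15179 genes tested the same fit called 31.7% higher and 32.3% lower, against 22.2% and 18.1% of the subunit genes. Complex I had 10 higher and 2 lower of 33, and complex V had 4 higher and 1 lower of 17. Complex III had 1 higher and 4 lower of 8, complex IV 1 higher and 4 lower of 10, and complex II 0 higher and 2 lower of 4. The medians were 0.13 log2 for complex I, -0.13 for complex II, -0.22 for complex III, -0.13 for complex IV and -0.12 for complex V, and -0.01 over all 72. The difference between complexes was not tested.

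These calls rest on the spread of the RepB/WT difference over days. With the spread between days taken instead (line and stage as the terms), 4 were higher and 5 lower, where 14% and 15.2% of all genes were called. Those were Ndufs4, Ndufa13, Ndufa2 and Atp5e on the higher side and Cox5a, Cox7a1, Cox8a, Uqcrc1 and Atp5g1 on the lower side. With library totals in place of TMM the split was 13 higher and 17 lower, and without the WT day 8 library, described further on, it was 15 higher and 25 lower. Fits of the WT or the RepB libraries alone called 0 in either direction (edgeR, 11 and 7 at an unadjusted p under 0.05).

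**Figure D2:**
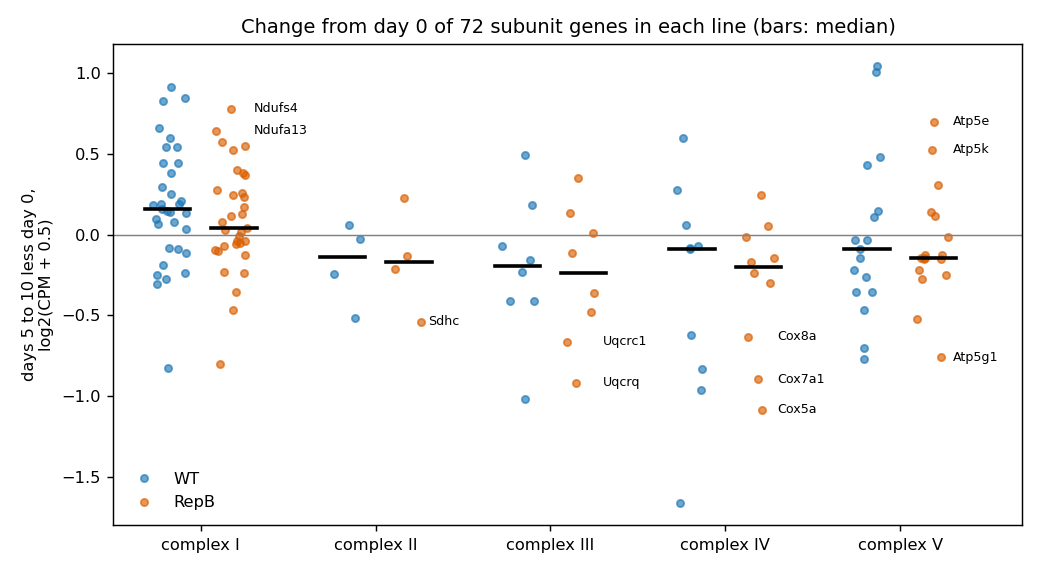
Mean log2(CPM + 0.5) over days 5 to 10 less that at day 0, for the 72 tested genes in WT (blue) and RepB (orange), by complex, with black bars at the medians. Ndufs4, Ndufa13, Atp5e and Atp5k lie highest in their complexes in RepB and Cox5a, Cox7a1, Cox8a and Atp5g1 among the lowest.

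In complex I the largest rise was that of Ndufs4, an accessory subunit of the NADH-oxidising arm whose loss gives a Leigh-like disease in mice. It read 32.8 CPM in WT and 35.2 CPM in RepB at day 0. On days 5, 6, 7, 8 and 10 it read 58.0, 63.8, 47.5, 78.8 and 66.8 CPM in WT and 69.1, 74.8, 52.5, 48.9 and 62.6 CPM in RepB. Each of the 10 later libraries was above both day 0 libraries, a 1.82-fold rise (log2 0.87, SE 0.16, adjusted p = 0.00050). Ndufa13, also called GRIM-19, rose by log2 0.75 (SE 0.10, adjusted p = 3.2e-05), from 64.7 and 74.9 CPM to between 97.5 and 151 CPM. The other 8 that rose were Ndufa2 (0.69), Ndufs3 (0.57), Ndufa5 (0.49), Ndufc1 (0.45), Ndufa10 (0.43), Ndufb9 (0.42), Ndufb7 (0.40) and Ndufa6 (0.38). Of these, Ndufs3 is a core subunit and the rest are accessory. Among these 8, the call of Ndufa2 alone held with line and stage as the terms. The rise of Ndufb7 was 0.66 in WT and 0.13 in RepB.

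Among the other core subunits of complex I, which hold the flavin and the iron-sulfur clusters, the following were not called. Ndufs1, Ndufs7, Ndufs8, Ndufv1 and Ndufv2 had log2 differences from -0.12 to 0.14. Ndufv1, which binds the flavin, read 85.6 and 90.4 CPM at day 0, 83.5 to 118 CPM later in WT and 76.8 to 93.9 CPM later in RepB, so its later libraries spread around day 0. The 2 complex I genes that fell were Ndufb10, at log2 -0.33 (SE 0.10, a call lost without day 7), and Ndufb4, at -0.94 (SE 0.24) from a mean of 2.46 CPM. Both calls were also lost with line and stage as the terms. Ndufb4 had 86 and 51 counts at day 0 and 4 to 44 counts in the later libraries.

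In complex II, Sdhc fell by 0.53 on the log2 scale (SE 0.10, adjusted p = 0.00071), from 121 CPM in WT and 107 CPM in RepB. In the libraries of days 5, 6, 7, 8 and 10 it stood at 69.3, 69.6, 75.8, 111 and 105 CPM in WT and 61.6, 64.7, 77.9, 81.2 and 86.3 CPM in RepB. It was lowest on day 5 in both lines and came back part of the way by day 10. Sdha fell by 0.23 (SE 0.09, adjusted p = 0.049), a call lost without day 7, without day 10 and with no filter on low counts. The calls of Sdha and Sdhc were also lost with line and stage as the terms (edgeR, adjusted p = 0.19 and 0.070). Sdhb and Sdhd differed from day 0 by -0.03 and 0.10.

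In complex III, Uqcrc1, a core protein and one of the most abundant members, fell by 0.54 (SE 0.09, adjusted p = 0.00016). It read 296 CPM in WT and 338 CPM in RepB at day 0. On days 5, 6, 7, 8 and 10 it read 217, 198, 207, 292 and 210 CPM in WT and 201, 190, 210, 261 and 212 CPM in RepB. The WT day 8 library was close to day 0 and the other 9 were lower. Uqcrq, a small accessory subunit, fell by 0.66 (SE 0.12) and Uqcr10 by 0.35 (SE 0.12, a call lost without day 10), and Uqcrh rose by 0.43 (SE 0.13). With line and stage as the terms the calls of Uqcrq, Uqcr10 and Uqcrh were lost. Uqcrb fell by 0.69 (SE 0.17), but its day 0 levels were 32.4 CPM in WT and 19.1 CPM in RepB. Its mean change was -1.01 in WT and -0.36 in RepB, and its call was also lost with line and stage as the terms (edgeR, adjusted p = 0.052). Uqcrc2, the other core protein, and Uqcrfs1, the Rieske iron-sulfur protein, differed by -0.07 and 0.16.

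In complex IV, Cox5a, a matrix-side subunit without tissue isoforms, had the largest fall among the abundant members. It read 160 CPM in WT and 161 CPM in RepB at day 0. From day 5 to day 10 the libraries read, in order, 94.0, 83.2, 65.8, 105 and 67.8 CPM in WT and 83.0, 97.8, 76.5, 68.2 and 58.5 CPM in RepB. No later library reached day 0, and the level was 2.02-fold lower (log2 -1.02, SE 0.13, adjusted p = 2.5e-05). Cox8a fell by 0.73 (SE 0.10, adjusted p = 3.7e-05), from 223 and 187 CPM to between 111 and 150 CPM. Cox6c fell by 0.39 (SE 0.15), but its day 0 levels were 43.9 CPM in WT and 29.6 CPM in RepB. Its mean change was -0.62 in WT and -0.17 in RepB, and its call was lost with line and stage as the terms. Cox6b1 rose by 0.26 (SE 0.10, adjusted p = 0.038), a call lost in 9 of 15 alternatives. Cox6a1 differed by -0.19 (SE 0.11, adjusted p = 0.16).

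In complex V the catalytic subunits were not past the threshold: Atp5b differed by -0.19 (SE 0.09) and Atp5a1 by -0.15 (SE 0.09). Atp5b became a call in 6 of 15 alternatives, among them other scalings and the fit without the WT day 8 library (-0.25), and Atp5a1 in 1, the latter fit (-0.21). Atp5b read 1428 and 1467 CPM at day 0 and between 1026 and 1509 CPM later. The largest rises were those of Atp5e, the epsilon subunit of the central stalk, and Atp5k, the membrane subunit e. Atp5e read 39.4 CPM in WT and 46.8 CPM in RepB at day 0. On days 5, 6, 7, 8 and 10 it read 74.7, 71.8, 66.4, 112 and 80.9 CPM in WT and 84.4, 81.5, 73.5, 65.5 and 77.4 CPM in RepB. Each later library was above both day 0 libraries, and the rise was 1.83-fold (log2 0.87, SE 0.16, adjusted p = 0.00056). Atp5k rose by 0.83 (SE 0.19, adjusted p = 0.0023), with a mean of 20.5 CPM. Atp5j2 and Atp5o, subunits f and OSCP, rose by 0.40 and 0.29. With line and stage as the terms the call of Atp5e held, and those of Atp5k, Atp5j2 and Atp5o were lost.

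**Figure D3:**
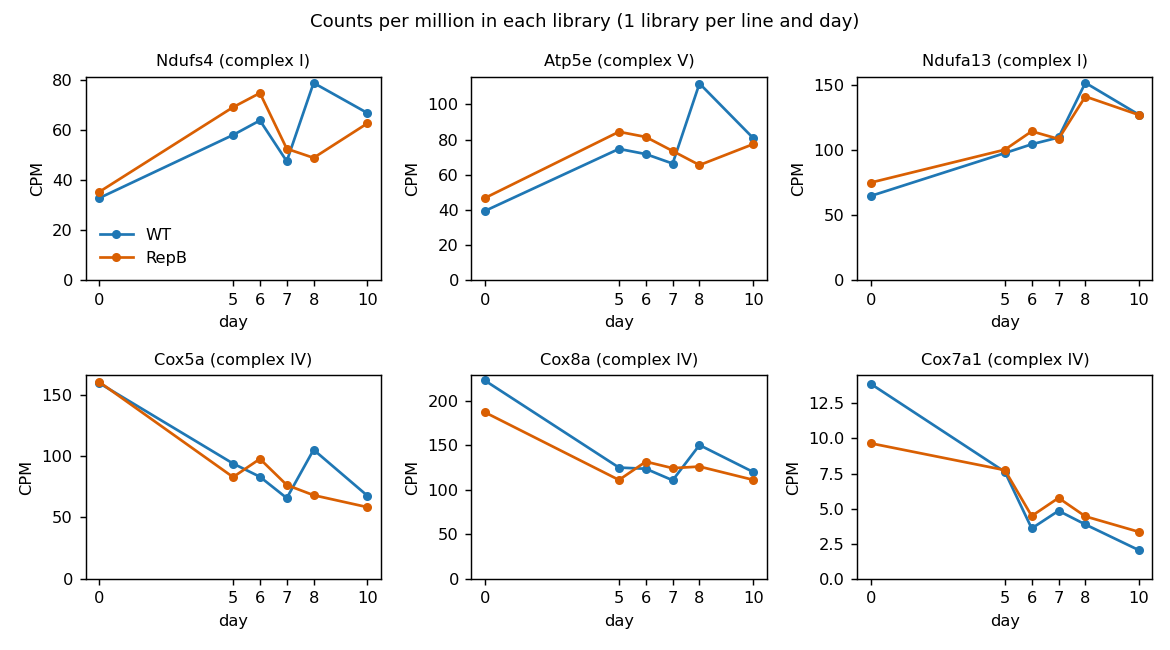
CPM in each library by day for 6 genes in WT (blue) and RepB (orange), with axes starting at 0. Ndufs4, Atp5e and Ndufa13 lie above day 0 on every later day and Cox5a, Cox8a and Cox7a1 below it, in both lines.

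Counted by library, 14 of the 72 tested had all 10 later libraries above day 0 of their line and 12 had all 10 below, against 3033 and 3433 of all 15179 genes. The sign of the mean change was the same in WT and RepB for 58 of the 72. The same share over all genes is not given here, so whether this is particular to the members was not tested. In a fit of a straight line over days 5 to 10, 10 of 71 tested had a slope past the threshold, 7 rising and 3 falling, where 27.9% of all genes rose and 26.6% fell. Those rising were Ndufa3, Ndufa13, Ndufs7, Ndufv3, Sdhc, Cox6b1 and Atp5s, and those falling Ndufs1, Uqcrq and Cox7a1. Atp5s had the steepest rise, log2 0.32 per day (SE 0.06, adjusted p = 0.00086), and Cox7a1 the steepest fall, -0.27 per day (SE 0.07, adjusted p = 0.0069). Leaving out 1 day at a time gave 5 to 16 members past the threshold, and leaving out the WT day 8 library gave 18.

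The promoters of 65 of the 77 genes were in the RefSeq table (GRCm38.p6, 250 bases before to 50 after the start), 62 by symbol and 3 by an older symbol. Nuclear respiratory factor 1 (NRF1), GABPA of the ETS family and YY1 are known regulators of this gene class, and the oestrogen-related receptors (ERR) of its induction. On either strand, the NRF1 letters GCGCANGCG were in 19 of the 65 (29.2%), against 12.8% of the 11329 promoters of tested genes and 6.5% of all 27025. The ETS letters CCGGAAG were in 23.1% against 16.4% and 9.1%, and the YY1 letters AAGATGGCG in 10.8% against 2.9% and 1.5%. The ERR letters TCAAGGTCA were in 2 of the 65 (3.1%), Sdhd and Atp5g3, against 0.2% and 0.4%. The SP1 letters GGGCGG were in 26 of the 65, against 63.7% and 35.9%, and the NFY letters CCAAT in 44.6% against 38.7% and 37.9%. Of the 14 matched genes that rose after day 0, NRF1 letters were in 4, ETS letters in 6 and YY1 letters in 3, and of the 9 matched that fell, in 4, 1 and 0.

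Among called members with a mean log2 CPM of 2 or more, the promoters of the 2 with the largest rise and the 2 with the largest fall are shown as examples of both directions. Capitals mark letters of the 6 motifs on either strand.
Atp5e: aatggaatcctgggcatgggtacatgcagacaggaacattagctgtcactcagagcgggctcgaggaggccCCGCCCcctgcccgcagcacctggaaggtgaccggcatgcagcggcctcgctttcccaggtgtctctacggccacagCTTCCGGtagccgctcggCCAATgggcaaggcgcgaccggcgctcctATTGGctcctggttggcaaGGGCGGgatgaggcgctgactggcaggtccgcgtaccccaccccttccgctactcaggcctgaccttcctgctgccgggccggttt
Ndufs4: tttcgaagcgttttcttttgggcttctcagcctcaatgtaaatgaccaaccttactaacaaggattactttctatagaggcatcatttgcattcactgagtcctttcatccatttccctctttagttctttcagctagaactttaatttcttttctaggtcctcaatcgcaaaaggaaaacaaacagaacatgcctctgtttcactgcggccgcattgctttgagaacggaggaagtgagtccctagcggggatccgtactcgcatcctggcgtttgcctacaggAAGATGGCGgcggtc
Cox7a1: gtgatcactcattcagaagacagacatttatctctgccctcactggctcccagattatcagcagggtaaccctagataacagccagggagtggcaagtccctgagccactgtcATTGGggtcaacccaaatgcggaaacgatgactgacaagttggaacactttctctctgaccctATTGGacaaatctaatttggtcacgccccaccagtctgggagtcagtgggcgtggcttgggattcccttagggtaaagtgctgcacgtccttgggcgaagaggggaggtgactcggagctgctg
Cox5a: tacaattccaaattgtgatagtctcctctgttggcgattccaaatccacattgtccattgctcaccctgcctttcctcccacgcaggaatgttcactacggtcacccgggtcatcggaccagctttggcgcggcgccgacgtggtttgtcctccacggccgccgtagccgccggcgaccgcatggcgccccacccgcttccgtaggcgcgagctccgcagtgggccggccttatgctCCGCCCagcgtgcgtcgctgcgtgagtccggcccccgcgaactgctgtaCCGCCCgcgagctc
Atp5e (chr2:174464052-174464351, minus strand) has ETS letters from base 149 of the window, SP1 letters from bases 72 and 215 and NFY letters from bases 167 and 196. Ndufs4 (chr13:114388045-114388344, minus strand) has YY1 letters from base 286, past the transcription start. Cox7a1 (chr7:30183921-30184220, plus strand) has NFY letters from bases 114 and 177. Cox5a (chr9:57520982-57521281, plus strand) has SP1 letters from bases 238 and 287. A match describes the letters and not a bound site.

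RNAs of the regulators themselves moved in both directions. Of 17 tested biogenesis regulators 3 rose and 9 fell after day 0, where 31.7% of all genes rose and 32.3% fell. These calls rest on the spread of the RepB/WT difference over days. Alternative fits were not examined for the regulators or for the other gene lists below. Nrf1 rose by log2 0.31 (SE 0.10, adjusted p = 0.017), from 69.2 and 87.5 CPM to means of 100 ± 19 (SD over 5 days) in WT and 96.6 ± 20 in RepB. Yy1 rose by 0.51 (SE 0.10) and Polg2 by 0.70 (SE 0.19). Gabpa fell by 0.86 (SE 0.09), from 176 and 161 CPM to 89.1 ± 17 in WT and 99.2 ± 18 in RepB. Pprc1 and Ppargc1b, coactivators of the PGC-1 family, fell by 0.88 and 1.12, and Esrrb, also a pluripotency factor, by 3.72.

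Other gene lists of energy metabolism and of ribosomes were counted in the same fit, with no test of the list, beside the 31.7% higher and 32.3% lower of all genes. Of 77 mitochondrial ribosomal protein genes, 26 were higher and 8 lower, with a median of 0.16. Of 43 assembly factors, 11 were higher and 9 lower. Of 12 tricarboxylic acid cycle genes 1 was higher and 5 lower, among the latter Idh3a at -0.72 and the citrate synthase gene Cs at -0.65. Of 9 tested genes of pyruvate entry 0 were higher and 6 lower, among them the kinase Pdk4 at -2.20 (SE 0.17). Glycolysis had 7 higher and 7 lower of 18, mitochondrial import 7 and 6 of 24, membrane carriers 1 and 3 of 7 and cytosolic ribosomal proteins 37 and 13 of 80. Among the 10 autosomal subunits and partners outside the symbol pattern 2 were higher and 3 lower. Of these, Ndufa4l2, a hypoxia-linked relative of Ndufa4, fell by 2.77 (SE 0.16), Cyct, the testis cytochrome c, by 1.98 (SE 0.24) and Cyc1 by 0.35 (SE 0.10), and Usmg5 rose by 1.28 (SE 0.37) and Atpif1, the inhibitor of ATP synthase, by 0.53 (SE 0.12).

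RepB and WT did not differ past the threshold in any tested autosomal member over days 5 to 10. The edgeR fit called 0 of 72, with 1 at an unadjusted p under 0.05, and called 2.28% of all genes in either direction. DESeq2 and limma-voom also called 0, with 1 and 2 at an unadjusted p under 0.05. The log2 RepB/WT was positive for 28 and negative for 44, with a median of -0.04. Over all genes tested 49.5% were positive, with a median of -0.002. Of 704 other autosomal genes with under 1000 bases of exon 56.0% were negative, with a median of -0.03. The median over the members of each complex was -0.01 for I, -0.12 for II, -0.04 for III, -0.08 for IV and -0.02 for V. Among the 66 members with a mean of at least 10 CPM, log2 RepB/WT ran from -0.39 to 0.18, with a median SE of 0.10. The lowest was Cox5b, a zinc-binding subunit, at -0.39 (SE 0.14, unadjusted p = 0.018, adjusted p = 0.21). On days 5, 6, 7, 8 and 10 Cox5b read 18.1, 24.2, 18.8, 33.5 and 28.0 CPM in WT and 13.6, 27.3, 13.6, 18.7 and 18.9 CPM in RepB, lower in RepB on 4 of the 5 days. Of the 10 autosomal subunits and partners outside the symbol pattern, 1 was called, Cyct. It was higher in RepB on 5 of 5 days (log2 1.23, SE 0.28, edgeR, adjusted p = 0.043), at a mean of 3.08 CPM. Alternative fits were not examined for Cyct.

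The abundant members lay close together in the lines. Atp5b had means of 1231 ± 125 CPM (SD over 5 later days) in WT and 1330 ± 181 in RepB, log2 0.11 (SE 0.08, adjusted p = 0.58). Atp5a1 had 798 ± 45 and 822 ± 60 CPM, Sdha 202 ± 14 and 201 ± 21 CPM, and Uqcrc1 225 ± 38 and 215 ± 28 CPM. At day 0, where each line had 1 library and no test was possible, the median log2 RepB/WT of the members was 0.05.

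The 3 X-linked subunits were set beside the autosomal ones. Ndufb11, a complex I subunit, read 100 CPM in WT and 107 CPM in RepB at day 0, and 80.2 ± 16 CPM in WT and 111 ± 11 CPM in RepB over days 5 to 10. It was higher in RepB on 5 of 5 days (log2 0.49, SE 0.09, adjusted p = 0.019), a call lost without day 6, 7 or 10, with no day term and with 1 genotype effect over 6 days. Ndufa1 was higher by 0.47 (SE 0.12, adjusted p = 0.063) and Cox7b by 0.35 (SE 0.11, adjusted p = 0.135), on 5 and 4 of 5 days. Ndufa1 became a call in 4 of 14 alternatives and Cox7b in 2, both of them without day 8 or without the WT day 8 library. Less the median of the autosomal members of the same complex on the same day, the difference was 0.49 ± 0.16 (SD, n = 5 days) for Ndufb11, 0.44 ± 0.07 for Ndufa1 and 0.44 ± 0.18 for Cox7b. Each was positive on 5 of 5 days, with a 2-sided exact permutation p of 0.0625 for all 3 (0.0625 after adjustment over the 3), the smallest that 5 days allow. These 3 comparisons were chosen after the values were seen. The 5 days come from 1 time course per line and the genes share libraries, so the p adds no support to the values. Other X-linked genes are not given here, so whether the difference is particular to the subunits was not tested.

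**Figure D4:**
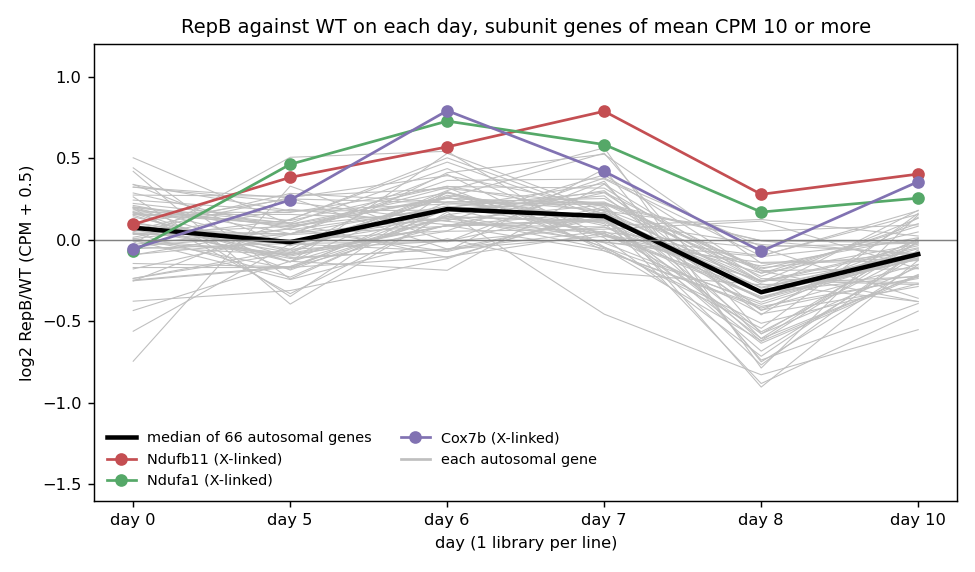
Log2 RepB/WT of CPM + 0.5 on each day for the 66 autosomal members with a mean of at least 10 CPM (grey), their median (black) and the 3 X-linked subunits (colours). The black line dips to -0.32 on day 8, and the 3 coloured lines stay above it on every day from 5 to 10.

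Day by day, log2 RepB/WT was -0.01 on day 5, 0.19 on day 6, 0.14 on day 7, -0.32 on day 8 and -0.09 on day 10 over the 70 members with a mean above 2 CPM. The WT day 8 library stood apart: the members lay a median of 0.38 above their own 12-library mean there, and for 59 of 70 it was the highest of the 5 later WT libraries. It was so too for 366 of 704 other autosomal genes with under 1000 bases of exon, whose median deviation was also 0.38, and genes of at least 4000 bases lay at -0.22. Of the 77 members 52 have under 1000 bases of exon, with a median of 651 bases against 2882 for tested genes. On each day the median RepB/WT of the short genes followed that of the members, at -0.00, 0.14, 0.11, -0.32 and -0.07. The part of exon length in the members' values was not tested. Without the WT day 8 library, 0 members differed between the lines, 10 at an unadjusted p under 0.05, and the median RepB/WT was 0.04.

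**Figure D5:**
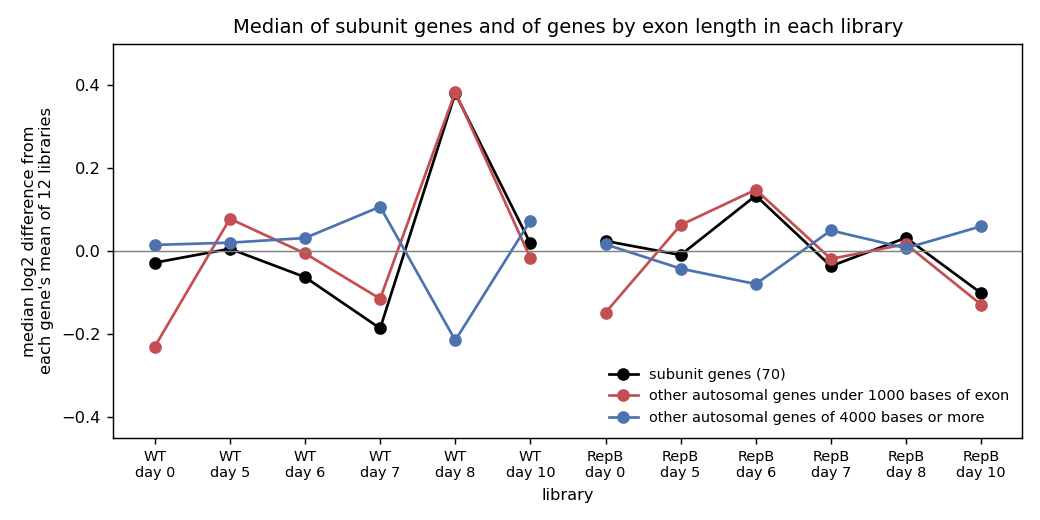
Median log2 difference of each library from the genes' 12-library means, for 70 respiratory chain genes (black), other autosomal genes with under 1000 bases of exon (red) and with at least 4000 bases (blue). In WT day 8 the black and red points both stand at 0.38 and the blue point at -0.22.

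Against day 0, the 704 short autosomal genes outside the list had 39.6% higher and 18.2% lower, where the members had 22.2% and 18.1%. The median change from day 0 was 0.25 log2 in the short genes, -0.01 in the members and 0.13 in complex I. The slopes over days 5 to 10 were not told apart between the lines. The test of RepB slope less WT slope called 0 of 71 members (edgeR, 0 at an unadjusted p under 0.05, and 0 by DESeq2 and limma-voom) and 0% of 12948 genes, of which 200 had an unadjusted p under 0.05. The difference was negative for 64 of 71, with a median of -0.05 per day and a median SE of 0.08. Over all genes tested the difference was positive for 52.2%, with a median of 0.005. Of the short genes 74.3% had a negative difference, with a median of -0.05 as in the members. Without the WT day 8 library the difference was negative for 53 of the 71 members, with a median of -0.03.

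Reads with an assigned allele, cas (taken as CAST/Ei) or mus (taken as 129/Sv/Jae), were enough in 55 autosomal members (a mean of at least 20 allelic counts). The cas share was a median under 5% in 21 of them, and the share went with the chromosome: 59.5% of 10001 autosomal genes were under 5%, among them 91.9% of those on chromosome 19 and 1.36% of those on chromosome 13. On the 7 chromosomes where over 40% of genes lay between 25% and 75%, 17 of 26 members did, and their RepB share less their WT share over days 5 to 10 ran from -12.8 to 9.82 points with a median of -0.02. The lowest was Atp5k, with a mean of 36.8 allelic counts and only 3 later RepB libraries with enough of them. The highest was Ndufs6, whose lines already differed at day 0, at 41.4% in WT and 63.1% in RepB. Sdha, on chromosome 13, had 49.6% and 49.1% at day 0 and 49.4% ± 2.2 (SD, n = 5) in WT and 49.4% ± 2.4 in RepB later. Ndufb11 on the X went from 52.6% to 82.3% ± 6.5 in WT and from 45.8% to 60.1% ± 5.3 in RepB, with later ranges of 73.6% to 89.5% and 52.9% to 67.9%. The shares of X-linked genes outside the chain are not given here, so whether this is particular to Ndufb11 was not tested. Cox7b, also on the X, stood at 9.15% and 7.05% at day 0 and at 8.61% ± 1.1 in WT and 8.63% ± 3.6 in RepB later. On the other 12 chromosomes 8 of 29 members still had a median of 25% to 75%: Ndufb3, Atp5b, Cox6c, Ndufa7, Ndufa11, Sdhb, Ndufa4 and Ndufa5. One of these, Ndufa7, had 54.4% and 51.4% cas at day 0, 23.2% to 37.5% later in WT and 16.9% to 63.5% later in RepB, so its RepB values spread across day 0.

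Across the 12 libraries, the genes outside the list whose log2 CPM followed the median of the members most closely, of 11838 whose log2 CPM averaged 2 or more, were Cox4i1 and Mrps35 (Pearson's r 0.89 for each), Mrpl52 (0.86), Anapc7 (0.84) and Fkbp2 (0.83). Cox4i1 is the complex IV subunit left out by the symbol pattern, and Mrps35 and Mrpl52 encode mitochondrial ribosomal proteins. These values share libraries and depth, and the WT day 8 library is among the points. Cox4i1 read 262 and 266 CPM at day 0 and 277 ± 54 CPM in WT and 277 ± 11 CPM in RepB later.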

How the data were processed

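Poly(A) RNA of 12 libraries was sequenced with a directional kit, per the labels. The authors deposited raw counts per gene, in total and for reads assigned to each allele, without normalization, and, in another deposited column, the exon bases of each gene, per the file headers. The submitters' processing notes list mm9, TopHat, Novoalign, SAMtools, bedtools and featureCounts with no roles. The strand setting and the treatment of reads with several matches are not given in the sources used here. The 6 count columns of a day with no matching RNA sample were not used, nor were the 21 other samples of the series.

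Counts were fitted in R 4.3.3 with edgeR 4.0.16 (TMM, filterByExpr by line and stage, quasi-likelihood test) over all genes of the table, with Benjamini-Hochberg adjustment over all genes tested and a threshold of 0.05. The fit of 12 libraries took day as a factor, with a RepB effect at day 0 and over days 5 to 10, with 4 residual degrees of freedom and a coefficient of variation of 12.2%. The slope fits used the 10 libraries of days 5 to 10, with 7 and 6 residual degrees of freedom. Alternatives used DESeq2 1.42.0, limma-voom (limma 3.58.1), other scalings, other terms, no filter on low counts, counts thinned to equal depth and each later day left out. Leaving out the WT day 8 library was added after the data were seen. The edgeR fits of the 4 comparisons, with their main settings, were tested on simulated data, and the alternatives were not. The simulated counts had about the coefficient of variation of the fit of 12 libraries, below the 22.55% and 23.68% of the slope fits.

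CPM used TMM-scaled totals, and differences outside the fits used log2(CPM + 0.5). The limit for a count of 0 covers counting error only. The members, the lists and the rules were chosen with earlier results of these data known. Named genes were, per complex, the 3 with the highest level per kilobase, the 2 steepest rises and falls from day 0 among genes called and averaging 2 or more in log2 CPM, all complex II genes, the c-ring genes, and tissue isoforms with their counterparts. Other genes named were chosen after their values were seen.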

Additional observations from a re-analysis of the deposited data

How the results depend on the processing

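The count of 0 members between RepB and WT, and that of 0 for the difference of slopes, held in every alternative run, with 0 to 10 members at an unadjusted p under 0.05 in the first and 0 to 3 in the second. For days 5 to 10 against day 0, 16 members were higher and 13 lower. With line and stage as the terms 4 were higher and 5 lower, with WT or RepB libraries alone 0 and 0, and without the WT day 8 library 25 were lower. Leaving out 1 day at a time gave 14 to 18 higher and 10 to 20 lower, the 20 without day 8. The 10 slopes became 5 to 16 with 1 day left out (5 without day 5, 6 without day 6 or day 10, 16 without day 8) and 18 without the WT day 8 library. The causes were not tested. No called value changed sign, but the median RepB/WT of the members went from -0.04 to 0.04 without day 8 or without the WT day 8 library, and values short of the threshold could change sign, as Atp5e did between RepB and WT (-0.12 to 0.11). Over the named genes and the 3 X-linked subunits, calls were lost 63 times and gained 12 times against day 0, lost 16 and gained 22 times for slopes, and lost 5 times (all Ndufb11) and gained 6 times for RepB against WT (4 for Ndufa1, 2 for Cox7b). RepB and WT were compared within days, which entered the fit as blocks; with no day term 0 members were called as well. Depth limits the low genes: 5 members stayed under the filter, and in the shallowest library 3 counts equal 0.889 CPM.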
